A study of Mus musculus with 3 samples.

Results

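The immediate early AP-1 and EGR transcription factors were followed in dental epithelial cells after a keratin 15 knockdown. The set holds 10 genes: 4 of the FOS family (Fos, Fosb, Fosl1, Fosl2), 3 of the JUN family (Jun, Junb, Jund) and 3 of the EGR family (Egr1, Egr2, Egr3). They were chosen by name, as the array probes annotated with those symbols, which gave 17 of 56598 probes and 10 of 24812 named genes. The rule reads probe names and no signal, but the set was chosen with earlier results of these data known.

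CLDE is a mouse dental epithelial cell line derived from the cervical loop, the growing end of the incisor, and it was kept in a serum-free keratinocyte medium. Cultures were harvested 72 h after transfection with Lipofectamine RNAiMax, in 3 groups of 1 array each. One group was a mock transfection, one received ON-TARGETplus non-targeting siRNAs (siNeg) and one received siRNA against Krt15 (siKrt15). The series title asks about keratin 15 and proliferation in the outer enamel epithelium. All 3 groups are the same line, and the labels name no other treatment or allele.

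The labels of 2 arrays are in conflict. One is siNeg by title and source name but siKrt15 by its description and treatment field, and the other array has the reverse. Groups here follow the titles. Under the other labels every sign of siKrt15 minus siNeg would turn, and the 2 comparisons with mock would change places. Krt15 itself, the targeted gene, had a processed signal of 2638 on the mock array, 1647 on siNeg and 267 on the array titled siKrt15. Its log2 difference was −2.88 against siNeg and −3.48 against mock.

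Every value comes from 1 hybridisation per group, so no difference has a replicate check and no p-value was computed. The processed signal is the scanner's background-subtracted intensity in arbitrary units. A difference is the log2 signal after each array was set to its own 75th percentile, at signals of 191.1 (mock), 180.4 (siNeg) and 216.0 (siKrt15). The ± value is the SD of the scanner's error model, which is nearly constant for bright spots, and does not include differences between cultures. Across the arrays 67.3 to 69.2% of spots lay well above background and 0 were saturated. All 6 epithelial markers (among them Krt5, Krt14, Cdh1, Epcam and Trp63) were above background on each array, with summed signals of 192433, 193083 and 211296 for mock, siNeg and siKrt15. These sums and those below are unscaled. After scaling, the median log2 difference of the epithelial markers was −0.13 against siNeg and −0.14 against mock. The mesenchymal markers summed to 234, 209 and 206, with Lum above background on no array. Their median log2 difference was −0.80 against siNeg and −0.38 against mock over 5 measured markers, and single ones went both ways, Dcn from 150 on siNeg to 85.8 on siKrt15 and Postn from 10.8 to 49.9. Of the endothelial markers, Cdh5, Kdr and Tek were above background on no array, and the list summed to 30.7, 20.1 and 24.9. For immune cells, 5 of 6 markers were above background, their sums were 5722, 5145 and 4784, their median difference was −0.31 against siNeg and −0.32 against mock, and Lyz2 was above background on no array. The part of these markers in the differences below was not tested. In RNA from a whole culture, fewer cells of a type and less RNA per cell cannot be told apart.

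Immediate early genes are transcribed within minutes of a growth factor, serum or stress signal, without new protein synthesis, and their mRNAs are short-lived. MAP kinases act on ternary complex factors bound with SRF at CArG boxes, and these switch on Fos and the Egr genes. FOS proteins pair with JUN proteins to form AP-1, which binds the AP-1 site, and JUN proteins can also pair among themselves. FOS proteins do not form stable pairs with each other. EGR proteins are zinc finger factors that bind GC-rich sites. In keratinocytes and other epithelia both families respond to EGF receptor signalling and to wounding.

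The probes that carry the main differences were those of Fos, Jun and Jund, with Junb shown beside them as the JUN gene that differed least. Each is 60 bases long, and the first 30 bases are printed in lower case, 5′ to 3′, as the scanner files give them. The coordinates are those of the files, on mm9.
Fos: cctgaggtctttcgacatgtggaaagtgaa
Jun: atgctaacgcagcagttgcaaacgttttga
Jund, first probe: tgcgtgttgagtgtgtgtttccttgtgttg
Jund, second probe: ttttgctacgagtccacattcctgttccgt
Junb, 3′ probe: ttcgtgtctaaagtctattttaagatgtgt
The Fos probe lies at chr12:86818118-86818177 on the plus strand and starts at base 1991 of NM_010234. The Jun probe lies at chr4:94716928-94716987 on the minus strand, at base 1926 of NM_010591. The 2 Jund probes lie at chr8:73224302-73224361 and chr8:73224436-73224495 on the plus strand, and the Junb probe at chr8:87500843-87500902 on the minus strand. The files give no exon or UTR for a probe.

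Promoter windows of 250 bases before the start were available for 7 of the 10 genes, from RefSeq on GRCm38.p6. Fos, Jun and Jund are shown because their signals differed most between siKrt15 and both controls, and Fosb because its window holds an EGR site. Capitals mark a motif match, and windows in lower case throughout held none of the motifs searched.
Fos, chr12:85473640-85473889, plus strand: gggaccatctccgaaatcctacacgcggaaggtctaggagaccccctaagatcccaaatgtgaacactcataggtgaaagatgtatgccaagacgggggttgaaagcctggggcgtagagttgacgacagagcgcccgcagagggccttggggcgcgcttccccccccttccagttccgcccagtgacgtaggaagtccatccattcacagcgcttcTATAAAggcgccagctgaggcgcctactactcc
Fosb, chr7:19310046-19310295, minus strand: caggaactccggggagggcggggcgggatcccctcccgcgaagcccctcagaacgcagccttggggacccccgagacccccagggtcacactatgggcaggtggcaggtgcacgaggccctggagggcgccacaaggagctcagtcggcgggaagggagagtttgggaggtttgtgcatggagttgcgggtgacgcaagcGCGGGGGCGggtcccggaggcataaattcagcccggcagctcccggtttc
Jun, chr4:95052223-95052472, minus strand: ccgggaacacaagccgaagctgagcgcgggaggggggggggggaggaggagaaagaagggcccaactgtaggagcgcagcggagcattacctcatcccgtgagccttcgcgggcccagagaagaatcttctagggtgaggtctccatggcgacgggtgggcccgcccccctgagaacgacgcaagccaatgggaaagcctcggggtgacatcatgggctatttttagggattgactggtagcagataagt
Jund, chr8:70697489-70697738, plus strand: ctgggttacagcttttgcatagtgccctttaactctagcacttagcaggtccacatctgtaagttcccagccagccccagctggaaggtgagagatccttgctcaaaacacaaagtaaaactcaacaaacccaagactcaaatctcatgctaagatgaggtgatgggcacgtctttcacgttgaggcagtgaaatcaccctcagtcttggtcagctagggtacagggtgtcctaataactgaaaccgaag
The motifs searched on both strands were an AP-1 site (TGANTCA), a CRE (TGACGTCA), an EGR site (GCGNGGGCG), the CArG box and a TATA box (TATAAA). The Fos window held a TATA box 33 bases before the start, as did 12.4% of all 32841 windows. An EGR site stood 50 bases before the start in Fosb and 79 in Fosl2, against 4.7% of windows with one. A CArG box stood in 4 of 5 Egr2 windows, against 1.47% of all windows. The Egr2 windows overlap one another in part, and several hold the same box, so they are not separate finds. The Jun, Junb and Jund windows held no exact match. The AP-1 site and CRE, present in 6.75% and 1.55% of windows, were in none of the members' windows as exact matches. Variants of these letters, and sites further upstream than the windows reach, were not searched. The absence of a match thus does not mean that a gene lacks such a site. GC content was 58.4% for Fos, 68.8% for Fosb, 61.2% for Jun and 47.6% for Jund, with a median of 52.4% over all windows. A match describes these letters and says nothing of binding in CLDE cells. Egr1, Egr3 and Fosl1 have no entry in the promoter table.

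The families did not move as one. In siKrt15, Fos and Egr1 were higher than on both control arrays, Jun and Jund were lower than on both, and Junb and Egr2 differed from siNeg by little more than the error-model SD or less. All 10 genes were measured in each comparison. Against siNeg, 5 lay above 0 and 5 below, with a median log2 difference of 0.12, and against mock the split was again 5 and 5, with a median of 0.05. Over all 17121 genes measured against siNeg the median was −0.08 and 39.4% lay above 0, and over 17130 genes against mock these were −0.06 and 41.9%. No gene of the set was at least 2-fold different, with 0 of 10 higher and 0 of 10 lower against siNeg, where 1.7% of all genes passed 2-fold upward and 2% downward. Against mock the counts were again 0 and 0, beside 2.18% higher and 1.24% lower. A count of 0 in 10 is near what those shares give in so small a set. The split of all genes moved with the scaling. Against siNeg it turned to 2.88% up and 0.847% down with median scaling and to 3.29% and 0.695% with spike-in scaling, and against mock it widened to 3.42% and 0.572% with median scaling. Both comparisons use the siKrt15 array, so the second is no independent repeat of the first.

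**Figure D1:**
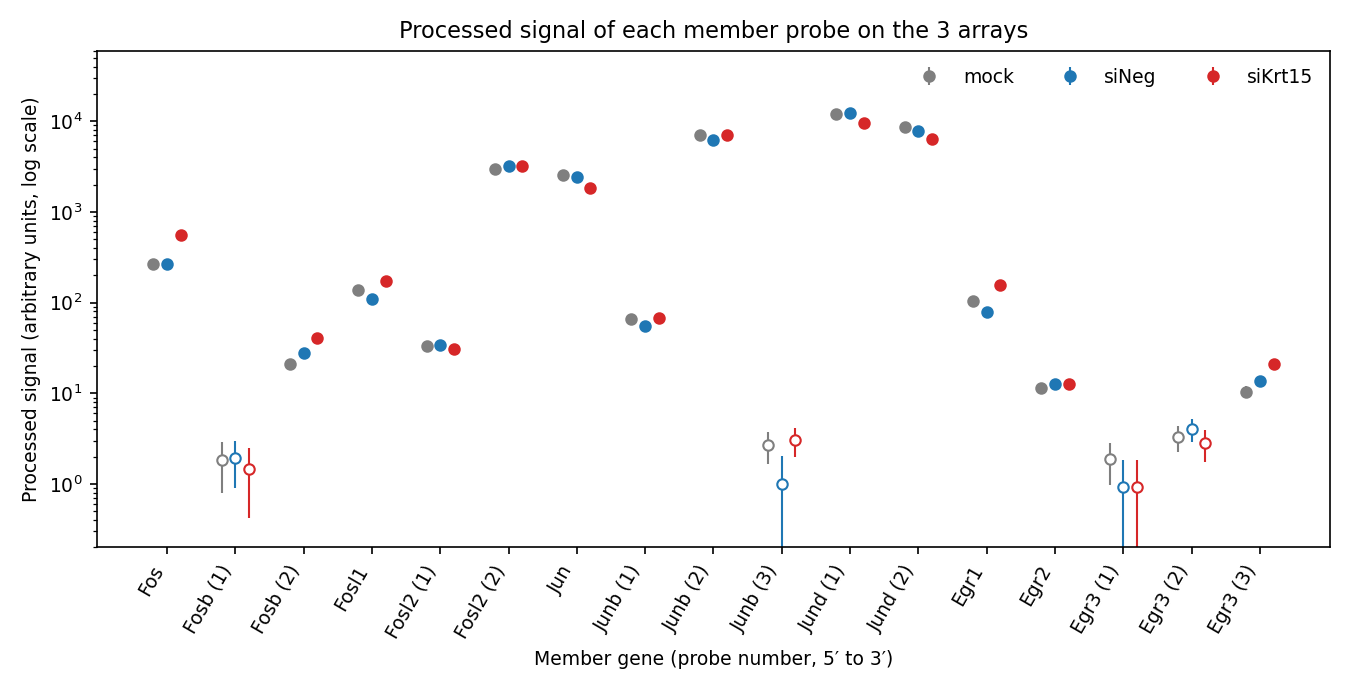
Processed signal of each of the 17 probes (log axis, arbitrary units) on the mock, siNeg and siKrt15 arrays. Bars are the scanner's error-model SD and open circles are probes not well above background. Fos sits at 267, 266 and 564, and both Jund probes are lowest on siKrt15.

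Fos, the founding member of its family and the partner that stabilises AP-1 with JUN proteins, had the largest difference of the set. Its processed signal was 267 on mock, 266 on siNeg and 564 on siKrt15. Both controls lay side by side and siKrt15 stood above both. After scaling, the log2 difference was 0.83 ± 0.20 against siNeg (1.77-fold) and 0.90 ± 0.20 against mock (1.87-fold), while siNeg minus mock was 0.08. Of all genes measured against siNeg, 2.58% lay above Fos. Among the 1000 genes nearest to it in signal the central 95% ran from −0.52 to 0.76 against siNeg, from −0.57 to 0.78 against mock and from −0.29 to 0.29 between the controls. Fos lay above that range in both siKrt15 comparisons. Across the 11 processing settings its difference from siNeg stayed between 0.76 and 1.09, and from mock between 0.84 and 1.11, so that it passed 2-fold in some of them.

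Fosb encodes the FOS protein whose long and truncated forms differ in transactivation. Its measured probe read 21.2 on mock, 27.9 on siNeg and 40.3 on siKrt15. All 3 arrays differed, with siKrt15 the highest and siNeg between. The log2 difference was 0.27 ± 0.22 against siNeg, 0.75 ± 0.22 against mock and 0.48 ± 0.22 between the controls. With normexp background correction these became −0.03, 0.16 and 0.19, and with no filter on dim probes −0.20, 0.11 and 0.31. A second Fosb probe, starting at base 1615 rather than 3593 of the same transcript, was not well above background on any array, at 1.85, 1.93 and 1.45.

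Fosl1 encodes FRA1, which like FRA2 lacks the C-terminal transactivation domain of FOS. Its signal was 138 on mock, 111 on siNeg and 173 on siKrt15, which placed siKrt15 above both controls and mock above siNeg. The log2 difference was 0.38 ± 0.20 against siNeg, 0.15 ± 0.20 against mock and −0.23 ± 0.20 between the controls. The difference from mock was thus smaller than the error-model SD. The difference from siNeg ranged over the settings from 0.26 to 0.65 and that from mock from 0.08 to 0.35. Fosl2, which encodes FRA2, had a probe at base 738 of its transcript that read 33.7, 33.9 and 30.6 and one at base 5726 that read 2978, 3194 and 3196 on mock, siNeg and siKrt15. The raw signals were close on all 3 arrays. After scaling, the gene's difference was −0.33 ± 0.15 against siNeg, with the probes at −0.41 and −0.26, and −0.20 against mock. It was −0.12 and 0.01 with median scaling and −0.07 and −0.09 with spike-in scaling, so its sign against mock turns and its size against siNeg falls below the error-model SD.

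Jun, the AP-1 partner that FOS proteins need to bind DNA, went the other way from Fos. Its signal was 2577 on mock, 2450 on siNeg and 1859 on siKrt15. Both controls were close together and siKrt15 lay below both. The log2 difference was −0.66 ± 0.20 against siNeg (1.58-fold lower), −0.65 ± 0.20 against mock (1.57-fold lower) and 0.01 between the controls. Of all genes measured against siNeg, 6.45% lay below Jun. Jun lay below the central 95% of the 1000 genes nearest in signal, which ran from −0.60 to 0.49 against siNeg and from −0.60 to 0.56 against mock. Its difference ranged over the settings from −0.70 to −0.39 against siNeg and from −0.69 to −0.45 against mock.

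Jund, the JUN protein that is expressed broadly and often restrains proliferation, was measured by 2 probes. The first read 12022 on mock, 12349 on siNeg and 9613 on siKrt15. Its second probe read 8726, 7790 and 6431. Both probes were lowest on siKrt15. The gene's log2 difference was −0.58 ± 0.14 against siNeg (1.49-fold lower), from probes at −0.62 and −0.54, and −0.56 ± 0.14 against mock, from probes at −0.50 and −0.62. Between the controls it was 0.02. The difference from siNeg was −0.36 with median scaling and −0.31 with spike-in scaling, and that from mock ranged from −0.60 to −0.36 over the settings. Jund lay below the central 95% of genes nearest in signal against siNeg, −0.53 to 0.38, and inside it against mock, −0.59 to 0.48.

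Junb encodes the JUN protein that opposes JUN in several settings. Its 5′ probe read 65.5, 55.8 and 67.6 and its 3′ probe read 6994, 6289 and 7083 on mock, siNeg and siKrt15. Unscaled, siKrt15 and mock were alike and siNeg was lower. After scaling, the difference was −0.04 ± 0.15 against siNeg, with the probes at 0.02 and −0.09, and −0.14 against mock. Its sign against siNeg was the same in 6 of 11 settings, with values from −0.09 to 0.42, so no direction is given for Junb. Another Junb probe, annotated to AK044253 and lying 4148 bases beyond the 3′ probe, was not well above background on any array, at 2.69, 1.01 and 3.04.

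**Figure D2:**
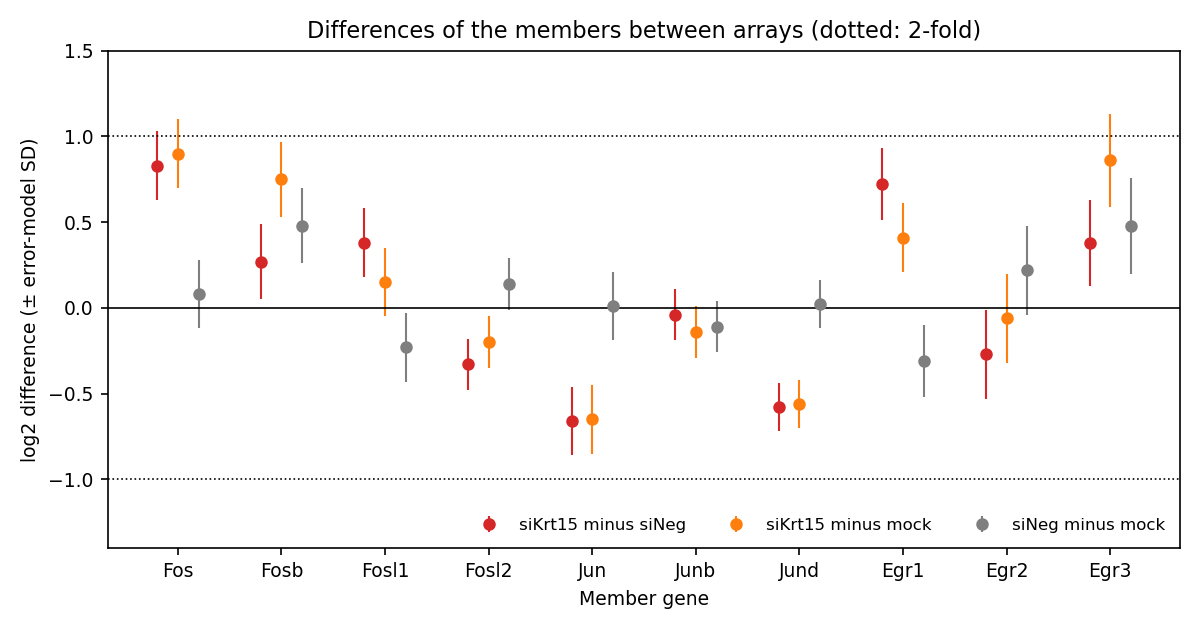
Log2 difference of each gene for siKrt15 minus siNeg, siKrt15 minus mock and siNeg minus mock, with bars of 1 error-model SD and dotted lines at 2-fold. Fos and Egr1 lie above 0 and Jun and Jund below 0 in both siKrt15 comparisons, and siNeg minus mock is near 0 for Fos, Jun and Jund.

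The FOS family's median was 0.32 against siNeg and 0.45 against mock, with 3 of 4 genes above 0 in each. The JUN family's median was −0.58 and −0.56, with 3 of 3 genes below 0 in each, although Junb's sign turns with the scaling. A constant set for each array cancels within it, though quantile normalization and trend removal do not. A contrast of Fos with Jun, the highest and the lowest gene of the set, was chosen after these values were seen, so its size is a description only. The difference of Fos minus that of Jun was 1.48 ± 0.29 on the log2 scale in siKrt15 against siNeg, 1.55 ± 0.29 against mock and 0.07 ± 0.29 between the controls. The filter and brightest-probe settings also leave it unchanged, since Fos and Jun have 1 probe each. Of the 11 settings, only quantile normalization, trend removal and normexp could move the contrast of Fos with Jun appreciably. Its ranges over all 11 settings were 1.35 to 1.48, 1.42 to 1.55 and 0.07 to 0.11. Fos minus Jund gave 1.40 ± 0.25, 1.46 ± 0.25 and 0.06 ± 0.25 in the same order. Fos minus Egr1 gave 0.11 ± 0.29, 0.49 ± 0.29 and 0.39 ± 0.29, so there the controls differed by more than siKrt15 and siNeg did.

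Egr1, an EGR factor rapidly induced by growth factors, was higher in siKrt15. Its probe, at bases 35024395 to 35024454 of chromosome 18 on mm9, read 104 on mock, 79.7 on siNeg and 157 on siKrt15. Here siKrt15 stood above both controls, which themselves differed. The log2 difference was 0.72 ± 0.21 against siNeg (1.64-fold), 0.41 ± 0.20 against mock (1.33-fold) and −0.31 ± 0.21 between the controls. Of all genes, 3.4% lay above Egr1 against siNeg and 9.8% against mock. The difference from siNeg lay inside the central 95% of the 1000 genes nearest in signal, −0.64 to 0.96, and the difference from mock lay inside the corresponding range. Over the settings the difference from siNeg ran from 0.43 to 0.99.

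Egr2 and Egr3, which act in hindbrain and Schwann cell development and in muscle spindle and immune tolerance, were close to background. Egr2 read 11.6 on mock, 12.7 on siNeg and 12.6 on siKrt15, and its difference was −0.27 ± 0.26 against siNeg and −0.06 against mock. The 3 Egr2 signals were nearly alike. Egr3 read 10.4, 13.6 and 21.2 at its single measured probe, highest on siKrt15. Its difference was 0.38 ± 0.25 against siNeg, 0.86 ± 0.27 against mock and 0.48 ± 0.28 between the controls. With normexp these first 2 differences became −0.08 and 0.06, so the direction of Egr3 against siNeg depends on the background correction. With no filter on dim probes they became −0.21 and −0.25, so both directions depend on the filter. Its other 2 probes were not well above background on any array. The EGR family's median was 0.38 against siNeg and 0.41 against mock, with 2 of 3 genes above 0 in each. The median against siNeg is the value of Egr3, so it too depends on the background correction. With normexp Egr1, Egr2 and Egr3 were at 0.43, −0.19 and −0.08 against siNeg, and only Egr1 lay above 0.

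**Figure D3:**
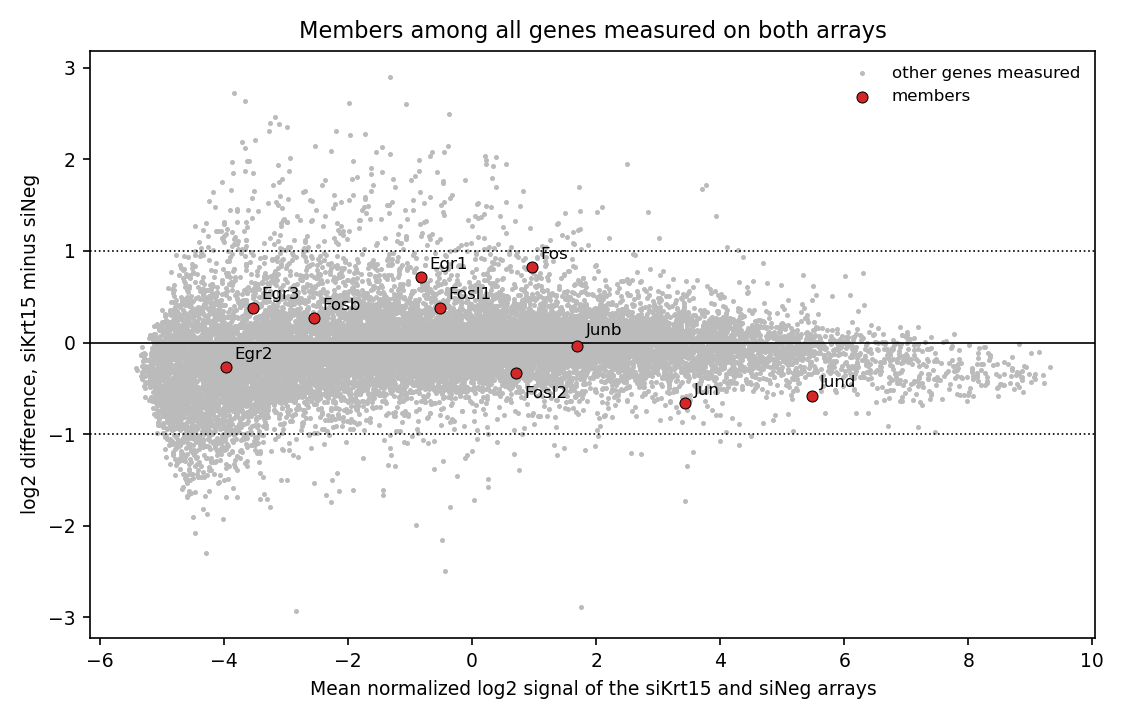
Log2 difference of siKrt15 minus siNeg against the mean normalized log2 signal for all genes measured on both arrays (grey), with the 10 members in red and dotted lines at 2-fold. Fos (0.83) lies near the upper edge of genes of like signal and Jun (−0.66) and Jund (−0.58) near the lower edge.

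Between the 2 control arrays the set differed less, with a median of 0.05, 7 genes above 0 and 3 below. The differences ran from −0.31 for Egr1 to 0.48 for Fosb and Egr3. None was at least 2-fold different, with 0 higher and 0 lower, while 0.356% of all 17416 genes passed 2-fold upward and 0.0459% downward. Over all genes the differences had an SD of 0.23 between the controls, 0.42 for siKrt15 minus siNeg and 0.43 for siKrt15 minus mock.

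**Figure D4:**
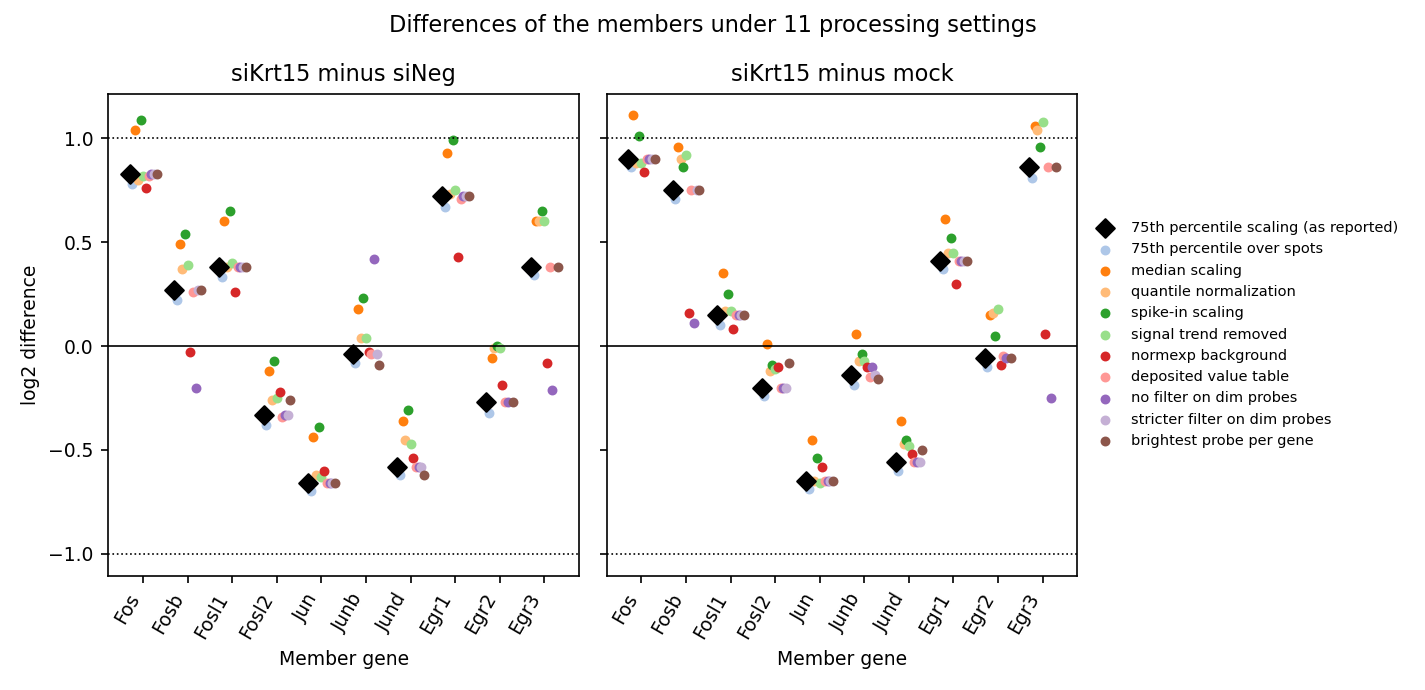
Log2 differences of the 10 genes under the 11 processing settings, with the reported values as black diamonds and dotted lines at 2-fold. Fos, Fosl1 and Egr1 lie above 0 and Jun and Jund below 0 under every setting in both comparisons. Fosb and Egr3 fall below 0 against siNeg with normexp (−0.03 and −0.08) and with no filter on dim probes (−0.20 and −0.21).

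Upstream of the set, transcripts of the MAP kinase cascade differed little. All 16 were measured, 7 above and 9 below 0 against siNeg, with a median of −0.04 and none at least 2-fold different. The values named are Map2k2 at −0.47, Map2k6 at −0.41 and Mapk14 (p38 alpha) at −0.33. All 3 kept their sign over the settings but moved widely, Map2k2 from −0.51 to −0.20, Map2k6 from −1.38 to −0.14 and Mapk14 from −0.38 to −0.04. Of SRF and its cofactors all 6 were measured, 2 above and 4 below 0 against siNeg, with a median of −0.27 that ranged over the settings from −0.39 to 0.00. Srf, the factor that binds CArG boxes, was at −0.74 against siNeg and −0.60 against mock, and read 2488, 2577 and 1853 on mock, siNeg and siKrt15. The ternary complex factor Elk3 was at 0.48, Elk4 at −0.46 and the myocardin-related cofactor Mrtfb at −0.35 against siNeg. Over the settings Elk4 ran from −0.50 to −0.16 and Mrtfb from −0.40 to −0.08.

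Feedback phosphatases, which remove the activating phosphates from MAP kinases and are themselves induced by them, included the 1 gene of all lists at least 2-fold higher against siNeg. The lists hold 88 genes, not all of them measured, and 1.7% of all genes passed 2-fold upward. A count of 1 is near what that share gives. Dusp6, which acts on ERK, read 1134 on mock, 985 on siNeg and 2598 on siKrt15, a log2 difference of 1.14 against siNeg and 1.02 against mock. Dusp4 was at 0.66 and Dusp2 at 0.38 against siNeg, and Dusp1, itself an immediate early gene, at −0.55. The median of the 5 was 0.38, with 3 above 0 and 2 below. Dusp6 ran from 1.09 to 1.41 over the settings, Dusp4 from 0.21 to 0.93, Dusp2 from 0.20 to 0.65 and Dusp1 from −0.60 to −0.28.

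The other immediate early genes were as split as the set itself. Of 22, 21 were measured against siNeg, 12 above 0 and 9 below, with a median of 0.07 and none at least 2-fold different. The kinase gene Sgk1 was highest at 0.93 and read 288, 217 and 496 on mock, siNeg and siKrt15. The zinc finger factor Klf2 was at 0.77, the nuclear receptor Nr4a3 at −0.59 and Ier2 at −0.66. Sgk1 and Klf2 stood above both controls, and Ier2 and Nr4a3 below both after scaling, while the unscaled signal of the brighter Ier2 probe was nearly flat at 664, 650 and 651. Over the settings Sgk1 ran from 0.32 to 1.20, Klf2 from 0.30 to 1.04, Nr4a3 from −0.63 to −0.26 and Ier2 from −0.70 to −0.26.

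Other bZIP factors that pair with AP-1 proteins lay on both sides of 0. Of 12, 11 were measured, 3 above and 8 below 0 against siNeg, where 39.4% of all genes lay above 0, and 5 above and 6 below against mock. The median against siNeg was −0.13 beside −0.08 over all genes. Atf3, a stress-induced partner of JUN, read 6795 on mock, 7052 on siNeg and 4863 on siKrt15, a difference of −0.80 against siNeg and −0.66 against mock. It lay below both controls, as Jun did. Mafk was at −0.49 (−0.54 to −0.22 over the settings), Batf2 at −0.32 (−0.37 to −0.05) and Batf3 at 0.36 (0.32 to 0.63) against siNeg. The list's median ranged over the settings from −0.18 to 0.14, so its sign depends on the scaling. Of Egr4, the EGR corepressors Nab1 and Nab2, and Wt1, which binds EGR-like sites, 3 of 4 were measured. Against siNeg Egr4 was at −0.59, Wt1 at −0.26 and Nab2 at −0.06, and no probe carried the name Nab1. Over the settings Egr4 ran from −0.63 to −0.32, Wt1 from −0.31 to 0.01 and Nab2 from −0.10 to 0.21, so only Egr4 of the 3 kept its sign. Against mock 2 lay above 0 and 1 below.

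Genes known as AP-1 targets went both ways. Of 16, 14 were measured against siNeg, 8 above 0 and 6 below, with a median of 0.16. Timp1, a metalloproteinase inhibitor, read 380, 430 and 910 on mock, siNeg and siKrt15, a difference of 0.82 against siNeg and 1.08 against mock. Against mock it was the 1 gene of 13 measured to be at least 2-fold higher, beside 2.18% of all genes. A count of 1 in so short a list is no result about the list. Hbegf, an EGF receptor ligand, was at 0.72 and 0.95. Plaur, the urokinase receptor, was at −0.60 and −0.46, and the heme oxygenase gene Hmox1 at −0.59 and −0.78. Over the settings the differences from siNeg ran from 0.78 to 1.09 for Timp1, 0.18 to 0.98 for Hbegf, −0.65 to −0.33 for Plaur and −0.66 to −0.32 for Hmox1.

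Genes known as EGR targets also lay on both sides of 0, with 2 of 8 above and 6 below against siNeg, where 39.4% of all genes lay above 0, and 3 above and 5 below against mock. The median against siNeg was −0.19. Tissue factor (F3) read 3958, 3789 and 2614 on mock, siNeg and siKrt15, a difference of −0.80 against siNeg and −0.78 against mock. The growth factor gene Fgf2 was at −0.93 ± 0.30 against siNeg on 1 of 3 probes, with dim signals of 11.4, 12.5 and 7.85, and ran from −0.97 to −0.29 over the settings. The adhesion gene Icam1, with a single probe measured and a signal of 17.2, 19.6 and 39.3, was at 0.75 against siNeg, with 0.16 to 1.01 over the settings, and 1.01 against mock. The list's median ranged over the settings from −0.23 to 0.08. No test was made of whether any of these lists differed from all genes.

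**Figure D5:**
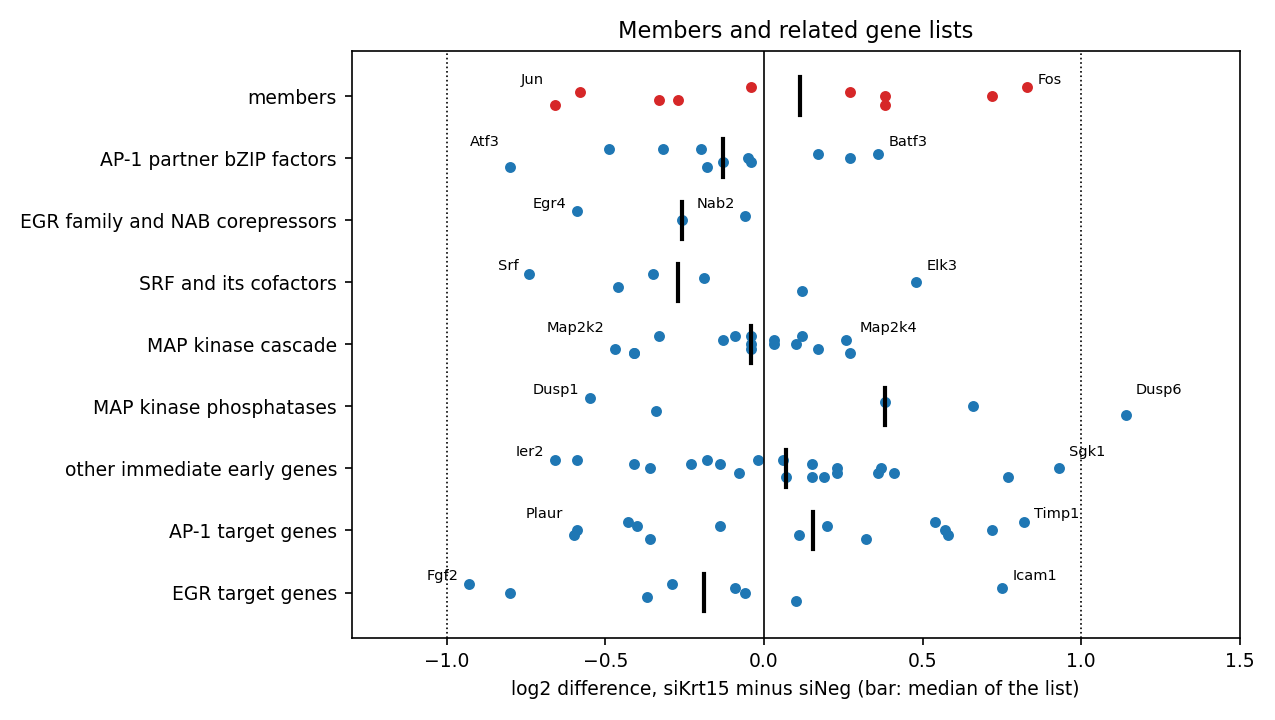
Log2 difference of siKrt15 minus siNeg for the members (red) and for the genes of 8 related lists (blue), with a bar at each list's median and dotted lines at 2-fold. Dusp6 (1.14) is the one point beyond 2-fold.

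The genes whose pattern over the 3 arrays was most like that of Fos were Ninj2, Vegfc, Podxl and Patz1. Likeness was the Euclidean distance between log2 values centred on each gene, over 12684 genes with brighter signals. The distances were 0.008 for Ninj2, 0.0099 for Vegfc, 0.013 for Podxl and 0.027 for Patz1. Fos itself was at −0.33 on mock, −0.25 on siNeg and 0.58 on siKrt15 around its mean. With 3 arrays many genes share such a shape, and no other likeness between these genes is meant.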

How the data were processed

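Per the labels' protocols, total RNA of 3 cultures was labelled with Cy3 for 1-colour Agilent arrays. Per the submitters' processing notes, Agilent Feature Extraction 11.5.1.1 was used, and per the file headers the protocol was GE1_1105_Oct12. The deposited scanner files give the processed signal, a background-subtracted intensity on a linear scale. The value table that the authors deposited holds log2 values. By comparison with the scanner files it is the log2 signal minus a constant near the 75th percentile, in the same direction and with no centring of genes, to within 0.01 for 93.8% (mock), 94.0% (siNeg) and 92.4% (siKrt15) of probes. Its medians are −3.52, −3.51 and −3.72. What was done to make it is not given in the sources used here.

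Control spots and outlier spots were left out, spots of a probe were averaged on the log2 scale, and the 75th percentile of each array over non-control probes was subtracted. A probe counted as measured when it was well above background on both arrays compared, and a gene was the mean of its measured probes. Names came through the RefSeq table of GRCm38.p6: 32989 probes by accession, 10224 by symbol and 520 by synonym, while 12865 kept the file's name and were not counted as genes. All 3 arrays lie on 1 slide with the same scan.

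There was 1 array per group, so no test was made. The number of arrays limits the precision. Named were all 10 members, Krt15, at most 4 genes of each list, those differing most between siKrt15 and siNeg, and the 4 genes nearest to Fos in pattern. Some list genes that this rule names are left out of the text. The 10 members and the 8 lists were chosen with earlier results of these data known. Alternatives were other scalings (75th percentile over all spots, median, quantile, spike-in, signal trend removed with a lowess span of 0.3), normexp with an offset of 50, the value table, other filters on dim probes, the brightest probe per gene and a 1.5-fold threshold. Python 3.11.15, numpy 2.4.6, pandas 2.3.3, statsmodels 0.14.6, R 4.3.3 and limma 3.58.1 were used. The scaling and the differences were tested on simulated data in which each probe stood for a gene. That test did not cover the averaging of probes, background flags that differ between arrays or differences between cultures.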

Additional observations from a re-analysis of the deposited data

How the results depend on the processing

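The members' median difference between siKrt15 and siNeg, 0.12 as reported, was 0.33 with median scaling, 0.38 with spike-in scaling and −0.21 with no filter on dim probes. The same settings moved the median of all genes from −0.08 to 0.14, 0.19 and −0.20, so differences are best read relative to that shift. Against siNeg, 1 member was at least 2-fold higher with median scaling and 1 with spike-in scaling, and at a 1.5-fold threshold 2 were higher and 1 lower. Against mock, 2 were at least 2-fold higher with median scaling (Fos and Egr3) and 1 with spike-in scaling (Fos). Quantile normalization and the signal trend removed each gave 1, which was Egr3, at 1.04 and 1.08, while Fos was at 0.88 in both. At 1.5-fold 3 were higher and 1 lower against mock. The share of all genes past 2-fold, over the 11 settings at that threshold, ran from 0.479 to 3.29% upward and from 0.134 to 8.34% downward against siNeg, and from 0.595 to 3.42% and 0.14 to 6.24% against mock, with the lowest from normexp and the highest downward shares with no filter on dim probes. Between the controls it ran from 0 to 3.37% upward and 0 to 1.66% downward. At 1.5-fold, 4.8% of all genes were higher and 8.63% lower against siNeg, and 5.83% and 7.69% against mock. Of single members' differences under the alternatives, 254 moved by less than the error-model SD and 40 by more. This tally pools all comparisons, the one between the controls included. Most of the 40 lay in siKrt15 minus siNeg, chiefly under median and spike-in scaling. Fos, Fosl1, Egr1, Jun and Jund kept their sign in all 11 settings in both siKrt15 comparisons. Not all of these settings could turn a sign. Fos, Fosl1, Egr1 and Jun have 1 probe each, so the filter and brightest-probe settings return the reported value. The deposited value table has nearly the same scaling as the reported one. Egr2, Egr3 and one probe of Fosb are near or at background, where the background correction sets the value. No paired analysis was possible because each group has 1 array, and no replicate could be left out.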
